A study of Mus musculus with 16 samples.

Results

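The 9 genes described here encode endothelial nitric oxide synthase, the structural proteins of caveolae, and the enzymes that clear the natural inhibitor of the synthase. They were chosen by gene symbol as Nos3, Cav1, Cav2, Ptrf, Sdpr, Prkcdbp, Ehd2, Ddah1 and Ddah2, and all 9 were found among the 43346 genes of the deposited table. The table uses older symbols for the cavins: Ptrf is now called Cavin1, Sdpr is Cavin2 and Prkcdbp is Cavin3. RNA-seq was carried out on endothelial cells (ECs) sorted from whole lungs of FVB mice that carry a Col1α1-GFP reporter transgene, 30 days after an intratracheal instillation. Young Sham (n = 5) and Aged Sham (n = 3) mice received PBS at 2 and 18 months of age, and Young Bleo (n = 4) and Aged Bleo (n = 4) mice of the same ages received bleomycin at about 1 U per kg. Bleomycin is a drug that injures the alveolar wall and leads to fibrosis, and the study asked how ECs of young and aged lungs respond to that injury. Cells were gated as CD31+ and as negative for CD45, EpCAM and the collagen reporter, and the purity of the sort was not assessed according to the study. Males and females were used per the study's methods, but Y-linked transcripts exceeded Xist in all 16 libraries.

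Caveolae are flask-shaped pits of the plasma membrane, and lung capillary endothelium is among the tissues richest in them. Caveolin-1 and caveolin-2 build the coat inside the membrane, the cavins cover it from the cytoplasm, and the ATPase EHD2 sits at the neck and holds the pit at the surface. Endothelial nitric oxide synthase is anchored in caveolae, where binding to caveolin-1 holds it inactive until calcium and calmodulin release it, and the nitric oxide it makes from arginine raises cGMP in neighbouring smooth muscle. Asymmetric dimethylarginine (ADMA) competes with arginine at the enzyme, and the dimethylarginine dimethylaminohydrolases DDAH1 and DDAH2 are the enzymes named for degrading it.

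The main result is that Nos3 rose after bleomycin at both ages, whereas Cav1 was not called in any comparison, and Cav2, Sdpr and Prkcdbp were called in the young comparison in opposite directions. The difference between the ages was itself not called for any of the 9 genes. In Young Bleo relative to Young Sham, 4 of the 9 genes passed the test: Nos3 and Prkcdbp were higher, and Cav2 and Sdpr were lower. Of all tested genes, 7.29% were called higher and 6.16% lower there. In Aged Bleo, Nos3 alone passed against either sham group. Shares of all genes were 6.58% higher and 3.15% lower against Young Sham, and 3.40% and 2.45% against Aged Sham. None of the 9 was called between Aged Sham and Young Sham, where 2.24% of all genes were called higher and 1.12% lower. Calls required a DESeq2 adjusted p (Benjamini-Hochberg, over all tested genes) no higher than 0.05 together with a log2 fold change of 0.5 or more in either direction.

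Total gene counts ranged from 20.9 M to 71.0 M per library. All 10 pan-endothelial markers, CD31 (Pecam1) and VE-cadherin (Cdh5) among them, were detected in every group, and their summed normalized count ran from 758099 to 863378 in Young Sham, 702802 to 771058 in Aged Sham, 567049 to 688236 in Young Bleo and 544863 to 693907 in Aged Bleo. Of the 10, Cldn5 and Kdr were lower (log2 fold change -0.92 and -1.64) and Emcn higher (0.54) in Young Bleo relative to Young Sham, and Cldn5 and Kdr were lower in Aged Bleo. Leukocyte markers (9 genes, each detected in at least 1 library of every group) summed to between 37813 and 138276 in Young Sham, 73679 and 222570 in Aged Sham, 146423 and 335949 in Young Bleo, and 178467 and 500390 in Aged Bleo. Of these 9 genes, 5 were higher in Young Bleo and 6 in Aged Bleo relative to Young Sham. Most of the sum came from Cd74, the invariant chain of MHC class II, which some lung ECs also express (group medians 116217, 175592, 252157 and 313878), followed by the lysozyme gene Lyz2 (4403, 7022, 37099 and 69778). Ptprc, which encodes CD45, the antigen gated out, reached 938 at most, and the T and B cell markers Cd3e and Ms4a1 were not called, so an order of libraries by this sum is mainly one by Cd74 and Lyz2. Markers of aerocytes, the capillary ECs specialised for gas exchange, went the other way, with 6 of 6 lower in Young Bleo and 2 of 6 in Aged Bleo relative to Young Sham and none at 0 in any group. Platelet markers summed to 375444 in Aged Sham 14 and to at most 104482 in the other 15 libraries. Of the 4, 3 were higher in Aged Sham than in Young Sham, and 3 were lower in Aged Bleo than in Aged Sham.

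At baseline these genes belonged to the abundant transcripts of lung ECs, with the exception of the synthase itself. On the deposited FPKM scale, which allows levels of different genes to be compared per length, Cav1 averaged 296 ± 31.4 (SD, n = 5) in Young Sham, and 63 genes of the table had a higher mean. Sdpr followed at 253 ± 38.7 and lay below Cav1 in 5 of 5 libraries. Ddah2 (99.5 ± 3.75), Prkcdbp (86.1 ± 2.03) and Cav2 (85.1 ± 8.75) formed the middle of the order, and Prkcdbp exceeded Cav2 in only 2 of 5 libraries. Ptrf (53.8 ± 5.56), Ehd2 (46.4 ± 7.84) and Ddah1 (35.0 ± 2.16) came next, with Ehd2 above Ddah1 in 4 of 5 libraries. Nos3 was the lowest of the 9 at 6.35 ± 1.43, and 4224 genes had a higher mean FPKM.

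The order was nearly kept in Aged Sham and changed most in Young Bleo. Cav1 had the highest and Nos3 the lowest mean FPKM of the 9 genes in each of the 4 groups. In Young Bleo, Prkcdbp stood second at 154 ± 27.5, and Sdpr stood behind Ddah2 at 118 ± 57.5 (n = 4). Mean FPKM of Nos3 was 5.10 ± 1.00 in Aged Sham, 19.1 ± 1.83 in Young Bleo and 13.0 ± 4.35 in Aged Bleo, so that in Young Bleo it exceeded Ddah1 in 1 of 4 libraries.

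**Figure D1:**
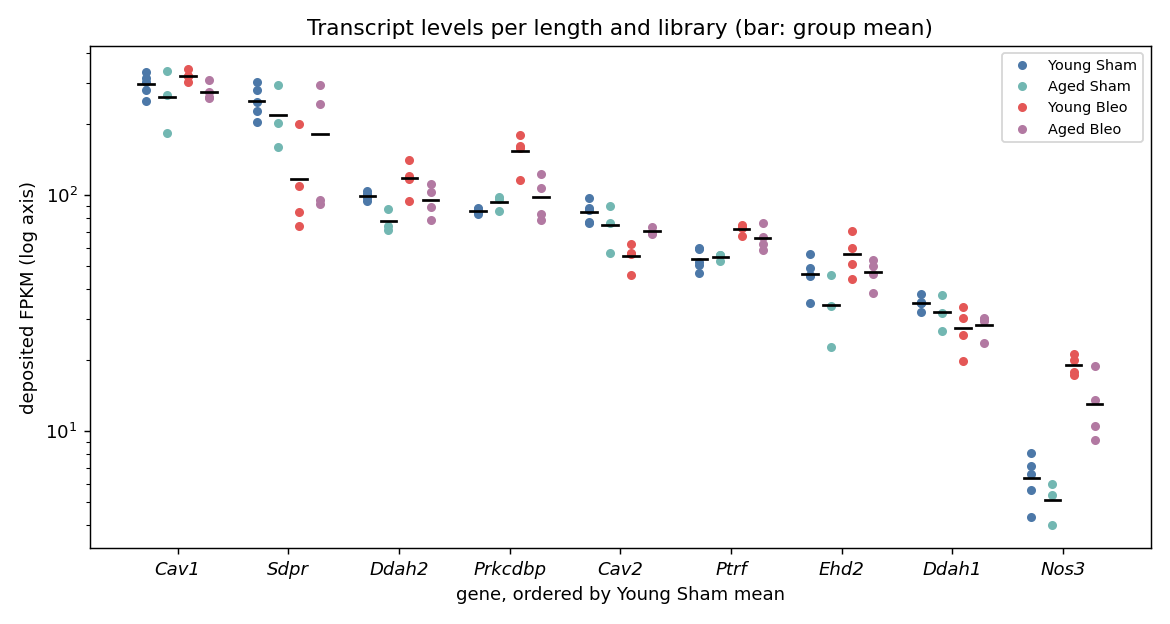
Deposited FPKM (log axis) of the 9 genes in each library, coloured by group, with bars at the group means and genes ordered by their Young Sham mean. Cav1 leads in every group, Nos3 is lowest in every group, and the Sdpr and Prkcdbp means change places in Young Bleo (118 and 154).

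Nos3 (ENSMUSG00000028978; mm10, chromosome 5, 24364810 to 24384474, plus strand) showed the largest response. Its DESeq2-normalized counts were 2356, 2654, 3264, 1920 and 3022 in Young Sham and 1944, 2740 and 2312 in Aged Sham. They were 8780, 8255, 7395 and 6929 in Young Bleo and 7904, 6106, 3745 and 4278 in Aged Bleo (replicates 1, 2, 3 and 5). All 8 bleomycin libraries lay above all 8 sham libraries, and Aged Bleo spread 2.11-fold from its lowest to its highest library against 1.27-fold in Young Bleo.

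Nos3 rose 2.97-fold in Young Bleo relative to Young Sham (log2 fold change 1.57, SE 0.218, DESeq2 adjusted p = 3.8e-10, edgeR adjusted p = 0.0010). The share of all tested genes called higher in that comparison was 7.29%. In Aged Bleo it rose 2.08-fold relative to Young Sham (1.06, SE 0.218, adjusted p = 7.0e-05; edgeR 0.0076), where 6.58% of genes were called higher, and 2.36-fold relative to Aged Sham (1.24, SE 0.249, adjusted p = 1.7e-04; edgeR 0.044), where 3.40% were. Both young and aged bleomycin groups were set against the same Young Sham libraries, so these values are not independent. In bulk RNA, fewer or more cells of a type and less or more RNA per cell cannot be told apart.

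The Aged Bleo libraries differed from each other in Nos3 and in marker sums. Aged Bleo 1 and Aged Bleo 2, with the highest Nos3 of their group, had leukocyte marker sums of 500390 and 407826 and aerocyte sums of 50193 and 87935. Aged Bleo 3 and Aged Bleo 5 had leukocyte sums of 178467 and 352160 and aerocyte sums of 317239 and 258650. Without the 2 libraries of highest leukocyte sum in each bleomycin group, a choice made after seeing the data, the log2 fold change in Aged Bleo was 0.61 relative to Young Sham (adjusted p = 0.140) and 0.79 relative to Aged Sham (adjusted p = 0.082), below the call, while in Young Bleo it was 1.45 (adjusted p = 1.6e-08). The libraries left out also held the 2 highest Nos3 values of each bleomycin group, so a smaller value followed from the choice, and 2 libraries remained in each group. Large-vessel arterial markers, another EC class, were higher as well: 4 of 6 were higher in Young Bleo and 5 of 6 in Aged Bleo relative to Young Sham, none was at 0 in any group, and their sums ran from 31810 to 47588 in Young Sham, 28703 to 47029 in Aged Sham, 69915 to 124550 in Young Bleo and 48939 to 128866 in Aged Bleo. Markers of other EC classes were also higher relative to Young Sham, with 3 of 6 venous markers in Young Bleo and 4 of 6 in Aged Bleo, 3 of 6 and 1 of 6 lymphatic markers, and 2 of 6 general capillary markers in each. General capillary sums ran from 89642 to 120739 in Young Sham, 64600 to 116647 in Aged Sham, 148196 to 177798 in Young Bleo and 112798 to 183799 in Aged Bleo. The part of these cell populations in the result was not tested.

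Nos3 in Aged Bleo was 0.703 times its level in Young Bleo, and 3 of 4 Aged Bleo libraries lay below every Young Bleo library. The difference (log2 -0.51, 95% interval -0.96 to -0.06, adjusted p = 0.378) was not called. Leaving out Aged Bleo 1 made it a call (log2 -0.73, adjusted p = 0.038). That library had the highest Nos3 of its group (7904), so a larger difference followed from the omission. In 15 of 16 fits that left out 1 library, the difference was not called. The bleomycin response of aged mice relative to Aged Sham minus that of young mice relative to Young Sham was -0.33 (95% interval -0.98 to 0.32, adjusted p = 0.857).

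Gm15587, an antisense gene of the annotation on the minus strand, lies across 17423 bases of the Nos3 locus and had between 158 and 2444 raw counts. The strand setting of the counting is not stated, and reads of the 2 genes may not have been separated. The ratio of Nos3 to Gm15587 counts averaged 4.42 ± 0.202 in Young Sham, 4.91 ± 1.13 in Aged Sham, 4.48 ± 0.409 in Young Bleo and 4.10 ± 0.398 in Aged Bleo, so Gm15587 moved nearly in step with Nos3. Atg9b, an autophagy gene of the opposite strand, overlaps the last 294 bases and reached 259 normalized counts at most.

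**Figure D2:**
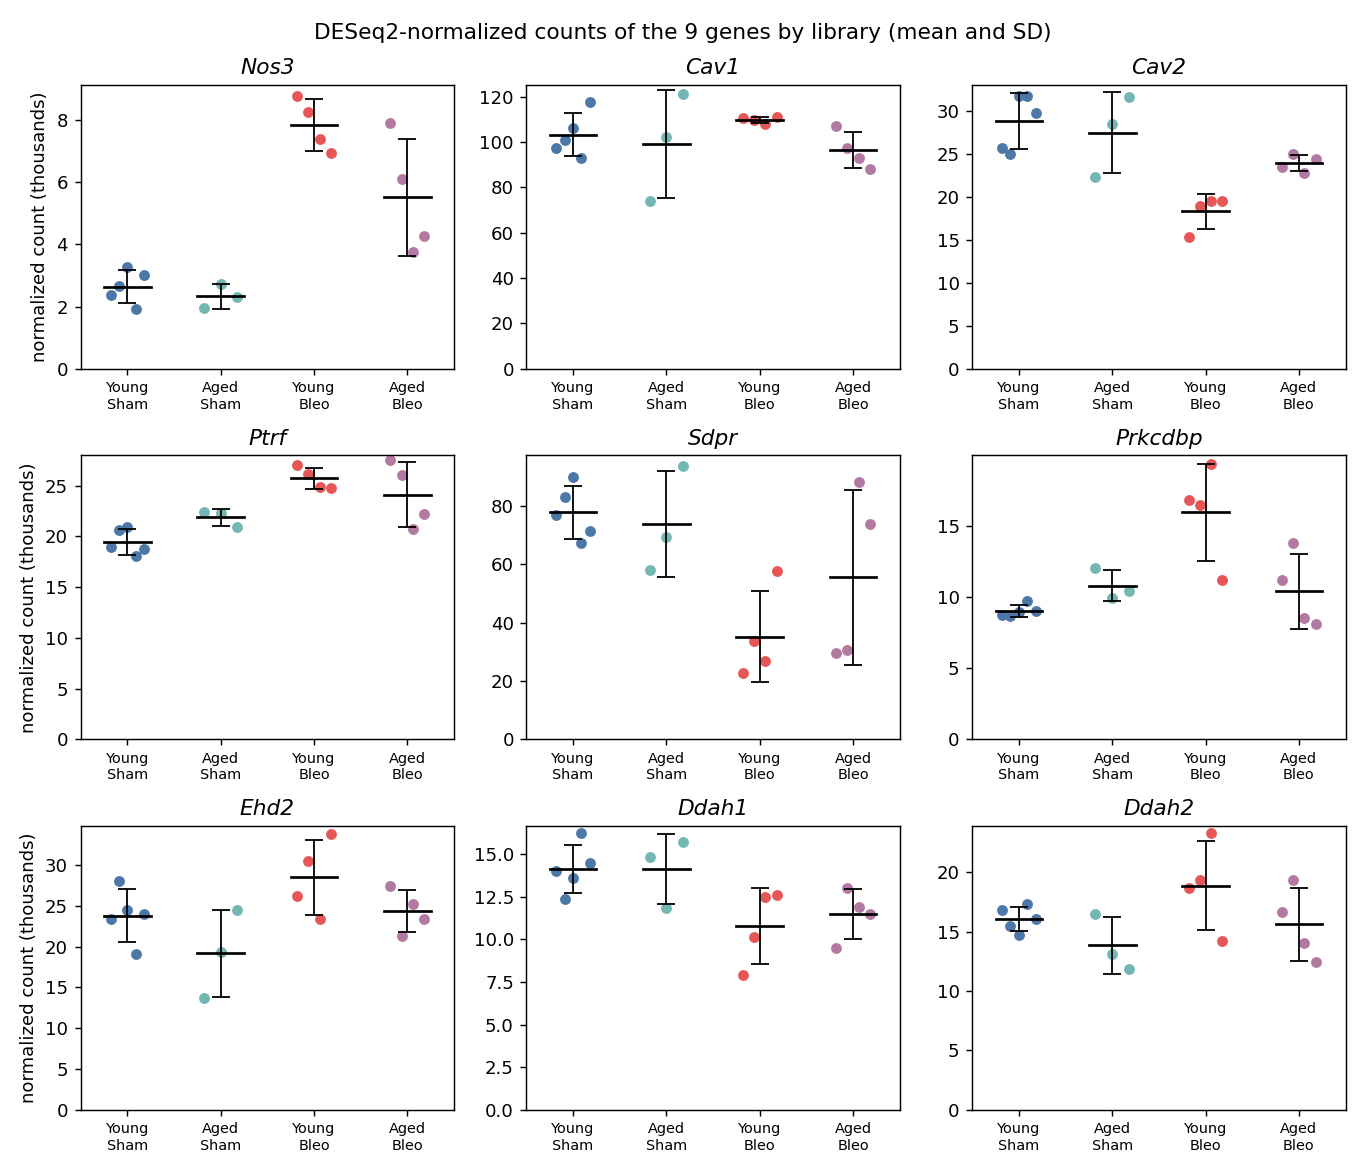
DESeq2-normalized counts (in units of 1000, axes from 0) of each gene by library, with 1 point per library and bars for the group mean and SD in Young Sham, Aged Sham, Young Bleo and Aged Bleo. Nos3 in the bleomycin groups (3745 to 8780) does not overlap the sham groups (1920 to 3264), and Sdpr in Aged Bleo falls into 2 low and 2 high libraries.

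Cav1 (ENSMUSG00000007655; chromosome 6, 17306335 to 17341452), the caveolin without which ECs form no caveolae, did not change detectably in any comparison. Its normalized counts were 97433, 101052, 106296, 93094 and 117673 in Young Sham and 74063, 102209 and 121014 in Aged Sham. In Young Bleo they were 110534, 109687, 107779 and 111074, and in Aged Bleo 107213, 97376, 93141 and 88277. The Young Bleo libraries spanned only 1.03-fold and sat inside the Young Sham range. The log2 fold change was 0.09 in Young Bleo (95% interval -0.17 to 0.35) and -0.10 in Aged Bleo (-0.35 to 0.16) relative to Young Sham, and -0.06 between the sham groups (-0.34 to 0.22). The 4 Aged Bleo libraries lay below the 4 Young Bleo libraries, with a difference of -0.19 that was not called (adjusted p = 0.731).

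Nos3 rose and Cav1 was not called, and the ratio of the 2 transcripts was lower after bleomycin. On the FPKM scale, Cav1 exceeded Nos3 47.9-fold on average in Young Sham (SD 6.95) and 51.1-fold in Aged Sham (SD 10.2). In Young Bleo the ratio was 16.9 (SD 1.82), and in Aged Bleo it was 22.5 (SD 6.03). The highest ratio among bleomycin libraries was 29.8 and the lowest among sham libraries was 39.1, so the ranges did not overlap. These ratios are of FPKM values within a library and not of protein, and they were not tested separately from the gene-wise fits.

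Cav2 (ENSMUSG00000000058; chromosome 6, 17281185 to 17289115), whose product joins caveolin-1 in hetero-oligomers, ends 17219 bases upstream of Cav1 and did not follow it. Its counts were 25710, 24923, 31689, 31692 and 29777 in Young Sham and 22316, 28494 and 31541 in Aged Sham. They were 15330, 18908, 19476 and 19530 in Young Bleo and 23444, 24970, 22813 and 24330 in Aged Bleo. Every Young Bleo library lay below every library of the other 3 groups.

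Cav2 fell 1.57-fold in Young Bleo relative to Young Sham (log2 fold change -0.65, SE 0.126, adjusted p = 1.3e-05; edgeR 0.0067), in a comparison where 6.16% of genes were called lower. With size factors from the pan-endothelial markers alone, the value was -0.33 (adjusted p = 0.074) and the call was lost. Under these factors the median log2 fold change of all genes was 0.35 and not 0.01. As given above, 3 of the 10 markers were themselves called in this comparison with the usual size factors. In Aged Bleo the log2 fold change was -0.27 (95% interval -0.51 to -0.02, adjusted p = 0.168), where 3.15% of genes were called lower. Cav2 in Aged Bleo was 1.30 times that in Young Bleo without overlap of the libraries (log2 0.38, 95% interval 0.12 to 0.64), but the adjusted p was 0.143. The ratio of Cav1 to Cav2 FPKM averaged 3.50 ± 0.450 in Young Sham, 3.47 ± 0.251 in Aged Sham, 5.87 ± 0.751 in Young Bleo and 3.92 ± 0.385 in Aged Bleo.

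Among the cavins, Sdpr (ENSMUSG00000045954; chromosome 1, 51289126 to 51302960), which helps to shape the caveolar membrane, varied most. Its counts were 76994, 82968, 90076, 67273 and 71443 in Young Sham and 58113, 69296 and 93602 in Aged Sham. They were 22789, 33536, 26919 and 57563 in Young Bleo and 29558, 30529, 88340 and 73779 in Aged Bleo. Young Bleo libraries all lay below the sham libraries, whereas Aged Bleo 1 and 2 were as low as Young Bleo and Aged Bleo 3 and 5 were within the sham range. Sdpr fell 2.21-fold in Young Bleo relative to Young Sham (log2 fold change -1.14, SE 0.327, adjusted p = 0.0060; edgeR 0.039). The Aged Bleo values, -0.49 relative to Young Sham (95% interval -1.13 to 0.16, adjusted p = 0.403) and -0.41 relative to Aged Sham (-1.14 to 0.32, adjusted p = 0.624), were not called. Without the 4 bleomycin libraries of highest leukocyte sum, Sdpr was -0.87 in Young Bleo (adjusted p = 0.027) and 0.07 in Aged Bleo (adjusted p = 0.978) relative to Young Sham. The libraries left out held the 2 lowest Sdpr values of Aged Bleo and the lowest of Young Bleo, so values nearer to 0 followed from the choice.

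Prkcdbp (ENSMUSG00000037060; chromosome 7, 105480607 to 105482197, minus strand), the cavin first described as a binding protein of protein kinase C delta, went in the opposite direction. Its counts were 8732, 8683, 8968, 9724 and 9050 in Young Sham and 12041, 9933 and 10455 in Aged Sham. They were 16846, 16477, 19366 and 11227 in Young Bleo and 11179, 13834, 8542 and 8099 in Aged Bleo. The 4 Young Bleo libraries exceeded all Young Sham libraries, the 3 Aged Sham libraries lay slightly above Young Sham, and Aged Bleo lay on both sides of it. Prkcdbp rose 1.77-fold in Young Bleo relative to Young Sham (log2 fold change 0.82, SE 0.177, adjusted p = 1.2e-04; edgeR 0.0069). In Aged Bleo the log2 fold change was 0.21 relative to Young Sham (95% interval -0.14 to 0.55) and -0.05 relative to Aged Sham (-0.45 to 0.34).

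Prkcdbp came closest of the 9 genes to a difference between the ages after injury. Aged Bleo was 0.652 times Young Bleo (log2 -0.62, SE 0.187, adjusted p = 0.070), and the aged response minus the young response was -0.88 (SE 0.269, adjusted p = 0.145). Leaving out Aged Bleo 2 gave -0.79 (adjusted p = 0.0029) and -1.05 (adjusted p = 0.013), and leaving out Young Bleo 20 gave -0.76 (adjusted p = 0.0019) and -1.02 (adjusted p = 0.0052). Aged Bleo 2 had the highest Prkcdbp of its group and Young Bleo 20 the lowest of its own, so a larger difference followed from either omission. In 14 of 16 fits that left out 1 library, neither value was called. With TMM factors in DESeq2 the values were -0.62 (adjusted p = 0.048), a call, and -0.86 (adjusted p = 0.134). With edgeR the adjusted p was 0.280 and 0.468.

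Ptrf (ENSMUSG00000004044; chromosome 11, 100956733 to 100970887, minus strand), the cavin required for caveola assembly, had counts of 18990, 20667, 20926, 18019 and 18723 in Young Sham and 22374, 22311 and 20919 in Aged Sham. They were 27010, 26136, 24915 and 24794 in Young Bleo and 27503, 26025, 20735 and 22183 in Aged Bleo. Young Bleo lay above both sham groups in every library. The log2 fold change of 0.40 (SE 0.0956, adjusted p = 6.5e-04; edgeR 0.023) was under the fold threshold and was not called, and the same held for the value of 0.31 in Aged Bleo (SE 0.0955, adjusted p = 0.017; edgeR 0.095). With the pan-endothelial size factors Ptrf was called in both, at 0.74 (adjusted p = 1.2e-04) and 0.73 (adjusted p = 1.4e-04).

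The proportions of the cavin transcripts were then compared per length, by FPKM within each library, without a test of their own. Sdpr exceeded Ptrf 4.68-fold in Young Sham (SD 0.262) and 3.98-fold in Aged Sham (SD 1.14), and 1.62-fold in Young Bleo (SD 0.765). In Aged Bleo the ratio ran from 1.26 to 5.00. The ratio of Prkcdbp to Sdpr FPKM averaged 0.347 ± 0.0536 in Young Sham, 0.455 ± 0.144 in Aged Sham, 1.58 ± 0.749 in Young Bleo and 0.765 ± 0.540 in Aged Bleo.

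Across the 16 libraries, log2 normalized counts of Sdpr and Prkcdbp had a Pearson correlation of -0.88, and of -0.87 after subtraction of the group means. Prkcdbp and Ddah2 correlated at 0.76 and at 0.92 within groups, and Cav1 and Ehd2 at 0.70 and at 0.74. These are descriptions of libraries that share group and cell composition. The aerocyte sums were 53103, 69843, 93482 and 230460 in Young Bleo (replicates 17 to 20), so the library with the highest Sdpr and the lowest Prkcdbp of its group also had the most aerocyte transcript. The sham libraries had aerocyte sums between 318162 and 482756. Markers of alveolar type 1 cells, the flat epithelium of the alveolus, were also lower, with 4 of 6 called in each bleomycin group relative to Young Sham, none at 0 in any group, and sums of 28906 to 41888 in Young Sham, 27835 to 61740 in Aged Sham, 3346 to 11575 in Young Bleo and 4858 to 23729 in Aged Bleo. Most of the sum was Hopx (median 26187 in Young Sham), and EpCAM+ cells were gated out of the sort. Relative to Young Sham, mesothelial markers were higher in each of the other groups, 4 of 4 in Young Bleo, 3 of 4 in Aged Bleo and 3 of 4 in Aged Sham, and none was called between Aged Bleo and Aged Sham. Their sums were at most 270 in Young Sham, where Wt1 was at 0, and at most 3426 in the other libraries. The part of aerocyte, alveolar type 1 or mesothelial content in the changes of Sdpr, Prkcdbp, Cav2 and Nos3 was not tested.

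**Figure D3:**
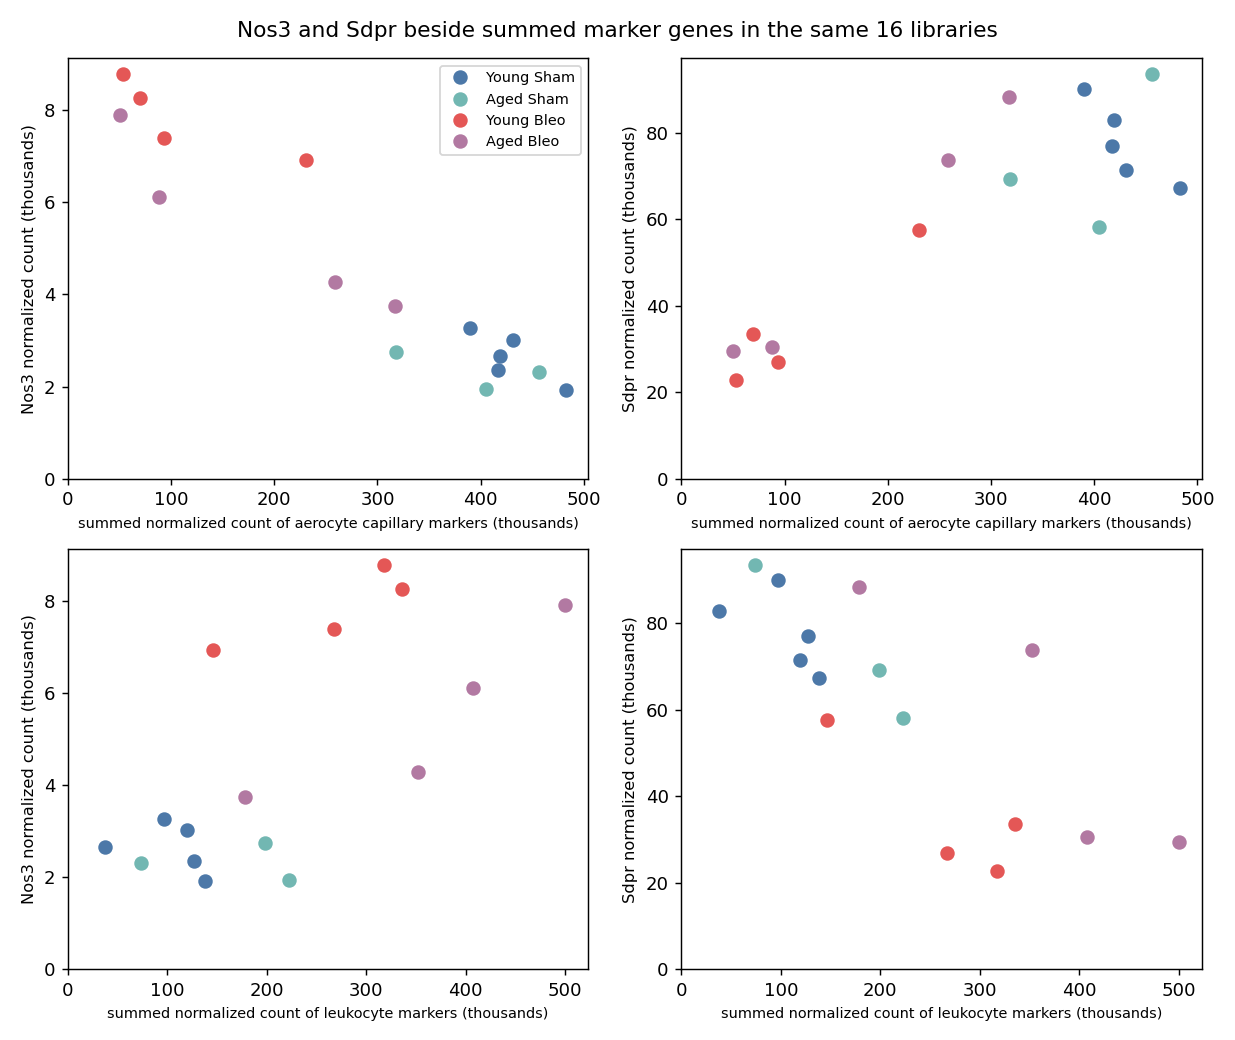
Normalized counts (in units of 1000) of Nos3 (left) and Sdpr (right) against the summed normalized counts of 6 aerocyte markers (top) and 9 leukocyte markers (bottom) in the 16 libraries, coloured by group. Libraries with aerocyte sums of at most 93482 hold the 5 lowest Sdpr values and 5 of the 6 highest Nos3 values, and all of them are from bleomycin-treated mice.

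The promoters of the caveolin pair and of Sdpr are shown because Cav2 and Sdpr fell in Young Bleo and the neighbouring Cav1 did not. Each line gives 250 bases before and 50 after the transcription start from RefSeq (GRCm38.p6, plus strand), at chr6:17306085-17306384 for Cav1, chr6:17280935-17281234 for Cav2 and chr1:51288876-51289175 for Sdpr. Capitals mark matches on either strand to AGGAAG or CGGAAG, core letters bound by ETS factors, a family that includes regulators of endothelial genes.
Cav1: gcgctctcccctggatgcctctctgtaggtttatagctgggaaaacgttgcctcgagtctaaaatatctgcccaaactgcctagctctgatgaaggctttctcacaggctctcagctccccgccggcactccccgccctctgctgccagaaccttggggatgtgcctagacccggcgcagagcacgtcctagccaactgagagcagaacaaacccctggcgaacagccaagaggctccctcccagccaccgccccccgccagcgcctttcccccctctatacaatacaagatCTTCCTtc
Cav2: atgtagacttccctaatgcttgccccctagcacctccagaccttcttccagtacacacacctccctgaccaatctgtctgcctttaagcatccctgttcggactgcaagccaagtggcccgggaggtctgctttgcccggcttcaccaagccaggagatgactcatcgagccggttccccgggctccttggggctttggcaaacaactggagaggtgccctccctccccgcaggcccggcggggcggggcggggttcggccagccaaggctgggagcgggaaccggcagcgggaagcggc
Sdpr: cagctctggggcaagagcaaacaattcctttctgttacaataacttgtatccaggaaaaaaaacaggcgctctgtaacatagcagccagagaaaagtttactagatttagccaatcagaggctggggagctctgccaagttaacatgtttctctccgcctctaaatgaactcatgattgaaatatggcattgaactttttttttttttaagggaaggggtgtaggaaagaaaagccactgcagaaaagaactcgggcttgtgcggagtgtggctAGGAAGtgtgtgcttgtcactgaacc
The Sdpr window holds AGGAAG on the plus strand 25 bases after the start, the Cav1 window shown holds it on the minus strand 43 bases after the start, and the Cav2 window holds neither form. The Cav1 window also holds TATAAA on the minus strand, 221 bases before the start. A second RefSeq start of Cav1, with its window at chr6:17307390-17307689, holds none of these letters and has 62.3% GC and 16 CpG dinucleotides. Among 32544 promoter windows of this length, 35.1% hold AGGAAG, 17.0% CGGAAG and 46.3% either form, and 13.6% hold TATAAA. A GC content of 43.3% and 4 CpG dinucleotides set the Sdpr window below the median of all windows (53.0% and 7), while the printed Cav1 (59.3% and 13) and Cav2 (64.3% and 16) windows lay above it. In the 9 windows found for 7 of the genes, the KLF-type letters CCACCC, present in 31.6% of all windows on either strand, occurred in both Ptrf windows and in that of Ddah2. The Ptrf windows (chr11:100970568-100970867 and chr11:100970566-100970865) overlap almost fully and hold the same matches. No window was found for Nos3 or Prkcdbp. A match of letters is a description and not evidence of binding.

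Ehd2 (ENSMUSG00000074364; chromosome 7, 15946977 to 15967567, minus strand) was not called in any comparison. Its normalized counts ran from 19091 to 28073 in Young Sham, 13724 to 24455 in Aged Sham, 23450 to 33813 in Young Bleo and 21377 to 27452 in Aged Bleo, and the groups overlapped in each comparison. The log2 fold change was 0.26 in Young Bleo (95% interval -0.08 to 0.60) and 0.03 in Aged Bleo (-0.31 to 0.37) relative to Young Sham, -0.31 between the sham groups (-0.68 to 0.06), and 0.35 for Aged Bleo relative to Aged Sham (-0.04 to 0.73).

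The ADMA-degrading enzymes were likewise not called. Ddah1 (ENSMUSG00000028194; chromosome 3, 145758675 to 145894277) had 14129 ± 1412 normalized counts in Young Sham, 14109 ± 2034 in Aged Sham, 10788 ± 2229 in Young Bleo and 11471 ± 1479 in Aged Bleo. Its log2 fold change relative to Young Sham was -0.39 in Young Bleo (95% interval -0.70 to -0.08, adjusted p = 0.073) and -0.30 in Aged Bleo (-0.61 to 0.01, adjusted p = 0.234). Ddah2 (ENSMUSG00000007039; chromosome 17, 35059035 to 35062095) had 16059 ± 1037, 13834 ± 2376, 18866 ± 3736 and 15615 ± 3049 normalized counts in Young Sham, Aged Sham, Young Bleo and Aged Bleo. Its log2 fold change was 0.23 in Young Bleo (-0.09 to 0.55) and -0.04 in Aged Bleo (-0.36 to 0.28).

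Counted over the 9 genes, Young Bleo relative to Young Sham gave 2 higher and 2 lower calls against 7.29% and 6.16% of all genes, and edgeR called the same 4 genes where it called 9.78% of genes in either direction. The median log2 fold change of the 9 genes was 0.23 beside 0.01 over all genes tested. Aged Bleo relative to Young Sham gave 1 higher and 0 lower calls (backgrounds 6.58% and 3.15%; edgeR called 1 gene of the 9, and 5.69% of all), with medians of -0.04 and 0.02. Aged Bleo relative to Aged Sham gave 1 higher and 0 lower calls (3.40% and 2.45%; edgeR 1 gene, and 0.797% of all). With 9 genes, each count is given as a description.

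Aged Sham relative to Young Sham gave no call among the 9 genes by DESeq2 or edgeR. The backgrounds of calls were 2.24% of genes higher and 1.12% lower, and 0.862% with edgeR. An unadjusted DESeq2 p under 0.05 was found for 0 of the 9 and for 2725 genes of the whole table, of which 18515 had an adjusted p. Among the 9 genes, the widest interval of the log2 fold change was that of Sdpr, from -0.78 to 0.62, and the narrowest that of Ptrf, from -0.04 to 0.37. Aged Bleo relative to Young Bleo gave 0 calls by both tools, where DESeq2 called 0.595% of genes higher and 0.411% lower and edgeR 0.0437%. At an unadjusted DESeq2 p under 0.05 were 3 of the 9 genes (Nos3, Cav2 and Prkcdbp). The whole table had 2005 such genes, and 18986 genes had an adjusted p. The difference of the aged and young responses gave 0 calls by both tools. DESeq2 called 0.132% of all genes higher and 0.245% lower there, and edgeR called 0.00546%. Of the 9 genes, 2 (Cav2 and Prkcdbp) had an unadjusted DESeq2 p under 0.05. Over all genes, 1591 had such a p, and 20380 genes had an adjusted p.

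**Figure D4:**
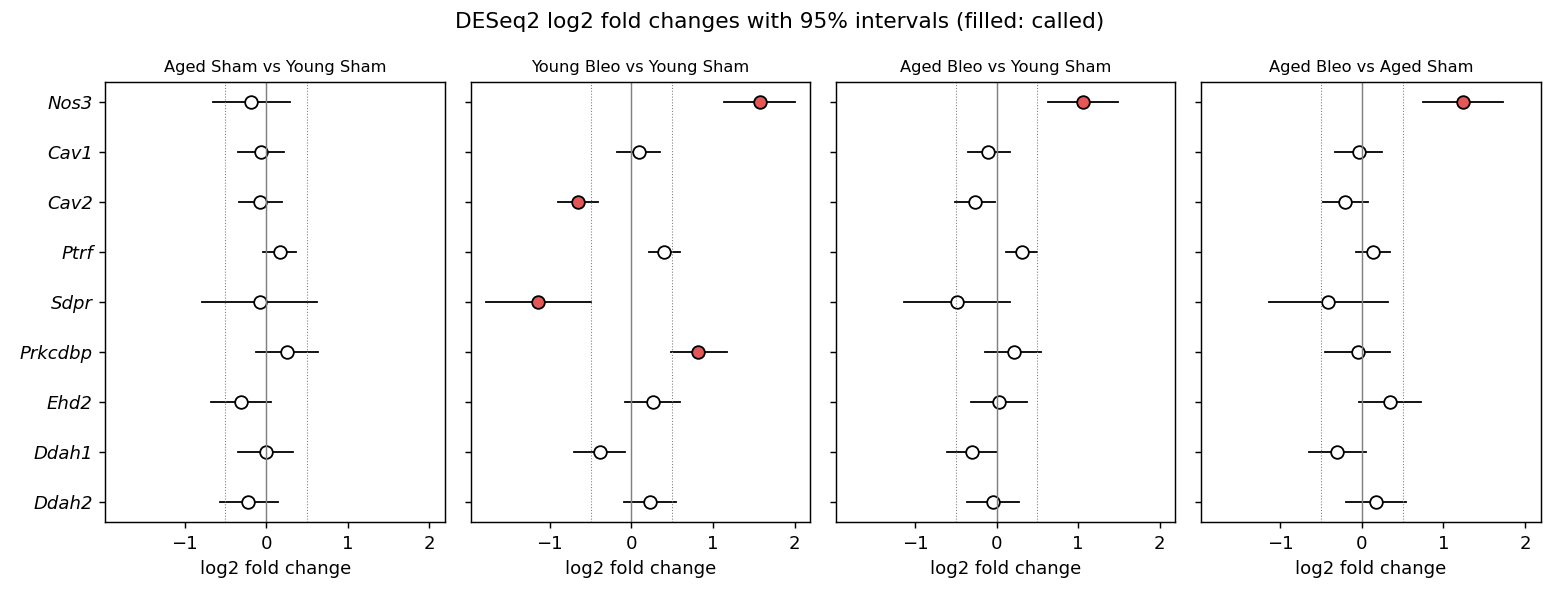
DESeq2 log2 fold changes (points) with 95% intervals (lines) of the 9 genes in 4 comparisons. Filled points were called, and dotted lines mark the fold threshold of 0.5. Nos3 is filled in all 3 bleomycin comparisons (1.57, 1.06 and 1.24), and Cav2, Sdpr and Prkcdbp are filled in Young Bleo relative to Young Sham.

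The other synthases were less abundant than Nos3 per length. Nos2, the inducible synthase of activated macrophages and other cells, had 755 ± 159 normalized counts in Young Sham, 404 ± 237 in Aged Sham, 2441 ± 511 in Young Bleo and 1555 ± 746 in Aged Bleo. It rose by a log2 fold change of 1.69 in Young Bleo (SE 0.349, adjusted p = 5.5e-05; edgeR 0.0071), 1.04 in Aged Bleo relative to Young Sham (SE 0.349, adjusted p = 0.031; edgeR 0.082) and 1.94 relative to Aged Sham (SE 0.399, adjusted p = 2.6e-04; edgeR 0.044). On the FPKM scale its group means ran from 0.876 to 5.90, below those of Nos3 in each group. Nos1, the neuronal synthase, had at most 6.61 normalized counts in any library. Of the 13 tested genes of the list of synthases and their regulators, 2 were higher in Young Bleo relative to Young Sham, Nos2 and Cyb5r3, a reductase of cytochrome b5 and of haemoglobin (log2 fold change 0.80, SE 0.170, adjusted p = 1.0e-04), and none was lower, with a list median of 0.10, where 7.29% of all genes were called higher. The same 2 genes were higher in Aged Bleo relative to Young Sham, where 6.58% of all genes were called higher. Cyb5r3 (0.78, adjusted p = 0.0025; edgeR 0.052) and the calmodulin gene Calm3 (0.85, SE 0.190, adjusted p = 0.0011; edgeR 0.032) were already higher in Aged Sham than in Young Sham. In the same comparison 3 of 4 platelet and 3 of 4 mesothelial markers were higher, and their part was not tested.

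A further list holds genes of the supply of arginine, of tetrahydrobiopterin (BH4), the cofactor of the synthase, and of its inhibitor ADMA. Prmt1, Prmt3 and Prmt6 stand in this list for ADMA, so its counts and medians are not of arginine and BH4 supply alone. Of its 13 tested genes, 4 were higher and none lower in Young Bleo relative to Young Sham (list median 0.26), 3 higher and none lower in Aged Bleo relative to Young Sham (0.12), and 3 higher and none lower in Aged Bleo relative to Aged Sham (0.22). The shares of all genes called higher in these comparisons were 7.29%, 6.58% and 3.40%. Gch1, the rate-limiting enzyme of BH4 synthesis, had 1337 ± 102 normalized counts in Young Sham, 1548 ± 350 in Aged Sham, 2929 ± 584 in Young Bleo and 2691 ± 795 in Aged Bleo, and it rose by a log2 fold change of 1.13 in Young Bleo (SE 0.207, adjusted p = 3.9e-06; edgeR 0.0029). Ass1, which takes part in the recycling of citrulline to arginine, had 850 ± 126, 783 ± 120, 1623 ± 236 and 1452 ± 329 normalized counts in Young Sham, Aged Sham, Young Bleo and Aged Bleo, and it rose by 0.93 in Young Bleo relative to Young Sham (SE 0.181, adjusted p = 1.6e-05; edgeR 0.0042) and by 0.89 in Aged Bleo relative to Aged Sham (SE 0.206, adjusted p = 0.0014; edgeR 0.046). Slc7a2, a carrier of cationic amino acids, rose by 1.88 in Young Bleo (SE 0.595, adjusted p = 0.015; edgeR 0.057) and 3.55 in Aged Bleo (SE 0.589, adjusted p = 2.9e-07; edgeR 0.0047) from 15.2 ± 8.95 counts in Young Sham. Leukocyte marker sums were higher in the same libraries, as given above, and their part in the changes of Nos2 and Slc7a2 was not tested.

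Most genes on the receptor side of the pathway were lower. Of 7 genes that make, sense or degrade cGMP, 4 were lower and 1 higher in Young Bleo relative to Young Sham (list median -1.45), and 5 were lower in Aged Bleo (-2.07), where 6.16% and 3.15% of all genes were called lower. Gucy1a3 and Gucy1b3, subunits of soluble guanylate cyclase, the nitric oxide receptor, fell by 2.88 (SE 0.510, adjusted p = 1.7e-06; edgeR 0.0069) and 2.19 (SE 0.499, adjusted p = 3.1e-04; edgeR 0.019) on the log2 scale in Young Bleo. Pde5a, the cGMP phosphodiesterase inhibited by sildenafil, fell by 2.21 in Young Bleo (SE 0.386, adjusted p = 1.2e-06; edgeR 0.0046). The gene that rose, named after its values were seen, was Pde2a, a cGMP-stimulated phosphodiesterase (1.70, SE 0.309, adjusted p = 3.2e-06; edgeR 0.0039). In Aged Bleo relative to Young Sham, Gucy1b3 fell by 2.19 (SE 0.498, adjusted p = 4.3e-04; edgeR 0.026). Relative to Aged Sham, where 2.45% of all genes were called lower, 2 of the 7 were lower, Gucy1b3 (-1.72, adjusted p = 0.042; edgeR 0.146) and Pde5a (-2.14, adjusted p = 2.5e-04; edgeR 0.044). Within Aged Sham, Gucy1b3 ran from 611 to 2167 normalized counts with a median of 763, and Pde5a from 812 to 2221 with a median of 907. Gucy1a3 fell by 3.42 in Aged Bleo (SE 0.510, adjusted p = 6.0e-09; edgeR 0.0044), and relative to Young Sham it was lower in Aged Sham too with DESeq2 but not with edgeR (log2 fold change -1.75, SE 0.555, adjusted p = 0.046; edgeR 0.208). Gucy1a2 had a mean of 25.7 normalized counts in Young Sham and 1.24 in Aged Bleo (adjusted p = 0.0073; edgeR 0.081).

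The cyclase subunits and Pde5a are also typical of mural cells. Smooth muscle and pericyte markers (6 genes, of which none was at 0 in any group) summed to between 8883 and 20041 in Young Sham, 5589 and 9576 in Aged Sham, 3211 and 8576 in Young Bleo and 2176 and 3704 in Aged Bleo. Of the 6, 3 were lower in Young Bleo and 6 in Aged Bleo relative to Young Sham. Fibroblast markers (6 genes, none at 0 in any group) summed to between 6814 and 16151 in Young Sham, 6375 and 11050 in Aged Sham, 8586 and 13845 in Young Bleo and 3432 and 6932 in Aged Bleo, and 4 of the 6 were lower in Aged Bleo and none in Young Bleo relative to Young Sham. In Aged Bleo relative to Aged Sham, 3 of 4 platelet markers were lower, as given above. The part of mural cells, fibroblasts and platelets in the fall of the cyclase subunits and of Pde5a was not tested.

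Of 12 tested genes of a list of caveola and membrane raft partners, 1 was lower and none higher in Young Bleo relative to Young Sham, with a list median of 0.06, where 6.16% of all genes were called lower and 7.29% higher. That gene was Ehd4, an EHD-family ATPase of endosomal membranes, at 83690 ± 4616 normalized counts in Young Sham, 78142 ± 11377 in Aged Sham, 38749 ± 16610 in Young Bleo and 54689 ± 29549 in Aged Bleo (log2 fold change -1.11, SE 0.315, adjusted p = 0.0055; edgeR 0.037). Cav3, Pacsin1 and Murc of the list were barely expressed, with means of 3.92, 3.83 and 25.8 normalized counts over the 16 libraries. No gene of this list was called in Aged Bleo relative to Young Sham (0 of 10 tested), and Ehd1, a related ATPase, was 1.45-fold higher in Aged Bleo relative to Aged Sham (adjusted p = 0.0080; edgeR 0.074). None of the 4 lists had a call by DESeq2 in Aged Bleo relative to Young Bleo or in the difference of responses.

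**Figure D5:**
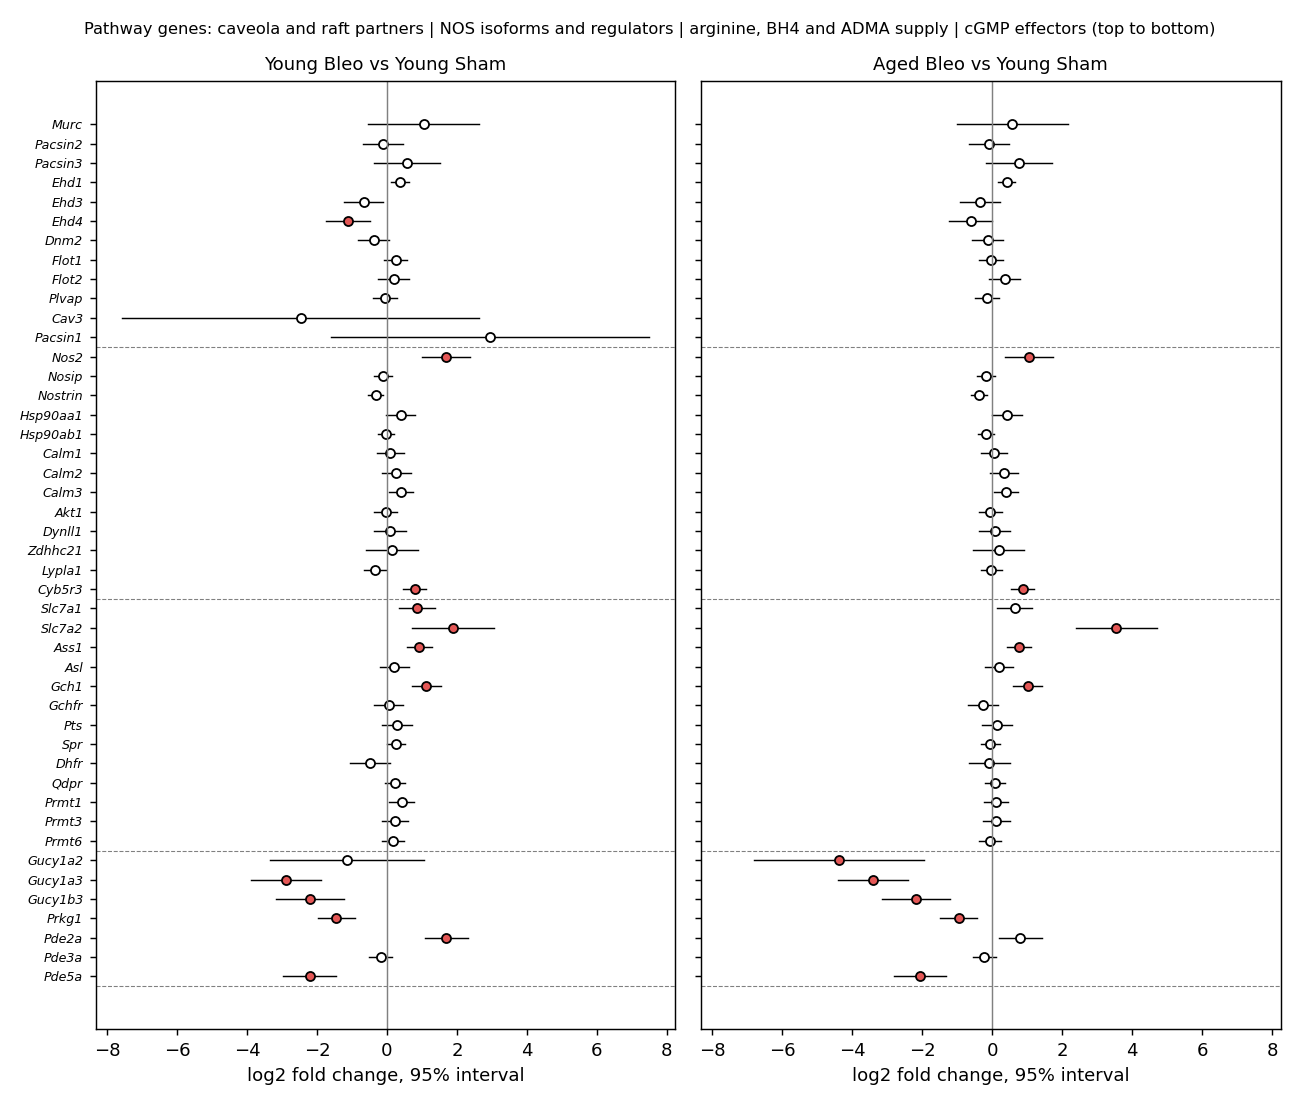
DESeq2 log2 fold changes with 95% intervals of the tested genes of 4 lists (caveola and raft partners, synthases and regulators, arginine, BH4 and ADMA supply, and cGMP effectors, from top to bottom between dashed lines) in Young Bleo and in Aged Bleo relative to Young Sham. Filled points were called. The filled points in the supply list all lie to the right of 0, and those of the cGMP list lie to the left except Pde2a in Young Bleo (1.70).

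Among 13773 genes with a mean of at least 50 counts, those most like Nos3 over the 16 libraries by Pearson correlation of log2 counts were Gm9869 (0.99), the overlapping Gm15587 (0.98), and Mmrn2, Fscn1 and Nrp2 (0.97 each), which stayed at 0.86 or above within groups for the last 3. Among the 9 genes, Ptrf was most like Nos3 (0.87) and Sdpr least (-0.81). For Cav1 the nearest genes were Spryd3 (0.88), Kansl2-ps (0.87), Csnk1g3 (0.86), Osbpl9 (0.85) and Cryz (0.84). Sdpr, added after its values were seen, was most like Nkd1, Tbx3, Alpl, Pde8b and Ehd4 (0.98 each). The libraries share group and cell composition, and no p is given.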

How the data were processed

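The authors aligned paired reads to mm10 with STAR 2.5.2b and counted them per gene with featureCounts (Subread) in the MAPRSeq pipeline, and deposited raw counts and FPKM values for 43346 genes in 16 libraries. The annotation release, strand setting and treatment of multi-mapping reads are not given in the sources used here. Labels and methods disagree on the library kit. The deposited FPKM values were used for levels between genes and 1 alternative. The study's methods name DESeq2, and the deposited counts were tested here with DESeq2 1.42.0 (R 4.3.3). Group was the only term, and all 16 libraries were in 1 fit with median-of-ratios size factors. Fold changes were unshrunken, and Benjamini-Hochberg adjustment ran over all genes. The alternative for every comparison was edgeR 4.0.16 quasi-likelihood. Other alternatives were limma 3.58.1 (voom, and limma-trend on log2 of FPKM plus 0.1), TMM factors, size factors from pan-endothelial markers, a filter of 10 counts in 3 libraries, fits on the compared groups alone, and leaving out each library. Correlations used log2 of the normalized count plus 1. Replicates are libraries that the labels number separately. The labels do not say how each was prepared, although the study describes each as a mouse, and p-values measure the spread between libraries. All 9 genes are named in each comparison, and from each pathway list up to 3 called genes of largest change, with Nos1 and Nos2 in any case. From the arginine list, 2 genes were left out of the counts and are not reported here. Ehd2, Ddah1 and Ddah2 are given by range or mean. The members and lists were chosen with earlier results of these data known.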

Additional observations from a re-analysis of the deposited data

Results flagged for a closer look

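In the groups of 4 or 5 libraries, 1 of 27 sets of values (9 genes in 3 groups) had a library far from the others. Cav2 in Young Bleo 17 (15330 normalized counts, against 18908 to 19530 in Young Bleo 18 to 20) had a gap of 0.866 of the group's range on the log2 scale. Chance flags about 1 in 20 such sets. On leaving out any 1 library, that one included, the log2 fold change of Cav2 in Young Bleo relative to Young Sham stayed between -0.70 and -0.57.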

How the results depend on the processing

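No paired analysis was possible because the groups share no replicate numbers. The DESeq2 fold changes of the 9 genes kept direction and side of the threshold in 1222 of the 1287 values computed under alternatives, and the young calls of Nos3, Sdpr and Prkcdbp held in all of them. The cause of the changes below was not tested. Size factors from pan-endothelial markers gave a median log2 fold change of all genes, 0.01 to 0.02 with the size factors used in the report, of 0.26 (Aged Sham relative to Young Sham), 0.35 (Young Bleo), 0.43 (Aged Bleo relative to Young Sham), 0.17 (Aged Bleo relative to Aged Sham), 0.10 (Aged Bleo relative to Young Bleo) and -0.17 (difference of responses). Under them 3 genes were called in Aged Bleo relative to Young Sham and 2 relative to Aged Sham. Ptrf (0.74), Ehd2 (0.57) and Ddah2 (0.59) became calls in Young Bleo. Values that turned direction were, for Aged Sham relative to Young Sham, Nos3 0.05, Cav1 0.17, Cav2 0.16, Sdpr 0.15, Ddah1 0.24 and Ddah2 0.04; for Aged Bleo relative to Young Sham, Cav1 0.31, Cav2 0.14, Ddah1 0.11 and Ddah2 0.39; relative to Aged Sham, Cav1 0.15 and Prkcdbp 0.13; and in the difference of responses, Ehd2 -0.05 and Ddah1 -0.06. Voom turned Cav1 to 0.00, and FPKM turned Cav1 to 0.11 and Prkcdbp to 0.04 in Aged Bleo relative to Aged Sham and Ddah2 to 0.06 in the difference. With FPKM the median of all genes was -0.11 in Aged Sham relative to Young Sham, 0.12 in Aged Bleo relative to Aged Sham and 0.10 in the difference. TMM factors gave 1 call (Prkcdbp) in Aged Bleo relative to Young Bleo. Leaving out 1 library gave 0 to 1 calls in Aged Bleo relative to Young Bleo and 0 to 1 in the difference of responses. The ranges of values that turned direction on leaving out 1 library were, for Aged Sham relative to Young Sham, Cav1 -0.23 to 0.12, Cav2 -0.18 to 0.07, Sdpr -0.29 to 0.07 and Ddah1 -0.09 to 0.11; for Aged Bleo relative to Young Sham, Ehd2 -0.04 to 0.10 and Ddah2 -0.16 to 0.06; relative to Aged Sham, Cav1 -0.21 to 0.13 and Prkcdbp -0.22 to 0.05; relative to Young Bleo, Ddah1 -0.03 to 0.17; and in the difference, Cav1 -0.30 to 0.04, Ehd2 -0.11 to 0.30, Ddah1 -0.03 to 0.18 and Ddah2 -0.18 to 0.08. Without Aged Bleo 1 and 2 and Young Bleo 17 and 18, chosen after seeing the data, 0 genes were called in Aged Bleo relative to either sham group. Prkcdbp alone was then called in Aged Bleo relative to Young Bleo (-0.88) and in the difference of responses (-1.14). The libraries left out held the 2 highest Prkcdbp values of Aged Bleo, so a larger difference followed from the choice. In the same fit, none of the 9 was called between the sham groups. Without these 4 libraries, Sdpr turned to 0.07 and Prkcdbp to -0.11 in Aged Bleo relative to Young Sham, Ptrf to -0.02, Sdpr to 0.14 and Ddah2 to -0.06 relative to Aged Sham, and Ddah1 to -0.10 relative to Young Bleo and -0.10 in the difference. Over all genes, DESeq2 and edgeR called 622 and 158 (Aged Sham relative to Young Sham), 1802 and 1043 (Aged Bleo relative to Young Sham), 1084 and 146 (relative to Aged Sham), 191 and 8 (relative to Young Bleo) and 77 and 1 (difference).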
